A study of Mus musculus with 1298 samples.

Results

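The late mesenchymal progenitors at E14.5 were the *Pax7*-lineage cells of the mouse embryo whose expression was highest for a panel of 4 genes of connective tissue, *Ogn*, *Aspn*, *Postn* and *Igf1*. A cell was scored on 9 panels of 4 marker genes, each score being the mean of log2(1 + 10000 × count / cell total). It was counted as a late progenitor when this panel scored highest and reached at least 0.7. Of the 1294 cells at E14.5, 28.7% met the rule and 922 did not, and the deposited single-cell tables held 3916 cells in all. The members were 32.3% of 968 cells on 10x, where 655 cells fell outside the class, and 59 cells with Smart-seq2. Members were chosen by the measured counts of the panel genes. Contrasts of level between them and other classes of cells are therefore given as a description and without a test. Changes from E14.5 to E16.5 were tested, within the class and as differences from the changes of dermal cells and muscle progenitors.

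The embryos were Pax7CreER:R26R-stop-EYFP, in which an inducible Cre driven from the *Pax7* locus switches on a yellow fluorescent protein (YFP) permanently. A single dose of 75 µg tamoxifen per g of body weight was injected into the pregnant mice at E9.5. Embryos were taken at E12.5, E14.5 or E16.5 with the head, limbs and viscera removed, and YFP+ cells were sorted, so that all groups carried the same alleles and had the same induction. Each stage had 1 10x library and 4 or 7 Smart-seq2 plates. *Pax7* is also active in the dorsal neural tube and neural crest, and the sort therefore held neurons beside somite derivatives. The embryos behind a library or plate were not named in the labels used here, so that plates were treated as technical and gave a range, not an error between animals.

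Mesenchymal progenitors of the trunk arise from the dermomyotome of the somites, which also gives rise to skeletal muscle, dermis and brown fat. They are fibroblast-like cells that lay down collagen-rich matrix and respond to PDGF, Wnt and IGF signals. In adult muscle their counterparts are the fibro-adipogenic progenitors, which can form fibroblasts or fat cells and are known by *Pdgfra*, the receptor for PDGF, and by *Ly6a* (Sca1). Of the panel genes, *Ogn* encodes osteoglycin and *Aspn* encodes asporin, both small leucine-rich proteoglycans. *Postn* encodes periostin, a matricellular protein that binds collagen, and *Igf1* encodes a secreted growth factor for muscle and connective tissue.

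In the E14.5 10x library the members held a median of 5409 UMIs (unique molecular identifiers, 1 per captured RNA molecule) and 1930 genes per cell. With Smart-seq2 they held a median of 989608 expected counts and 7714 genes. All cells of both tables had a YFP count of at least 1. The highest mitochondrial share of a member was 5.73%, 2 of the 10x members were called doublets, and each pair of 10x libraries shared 1 cell barcode. The E16.5 10x library was shallower, with a median of 1466 UMIs in its late progenitors.

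Late progenitors took up different shares of the cells in different libraries. With exact binomial 95% intervals, their share at E14.5 was 32.3% on 10x (29.4 to 35.4) and 18.1% with Smart-seq2 (14.1 to 22.7). Among the 4 plates the share was 30.4% (28 of 92 cells), 21.3% (19 of 89), 10.5% (9 of 86) and 5.08% (3 of 59). The first pair of plates belonged to sequence batch 3 and the second pair to batch 4. The shares of the batches did not overlap, but their intervals did. They were 13.4 to 31.3 for the lower plate of batch 3 and 4.90 to 18.9 for the higher plate of batch 4. The share was 2.36% on 10x and 5.73% with Smart-seq2 at E12.5, and 19.9% and 31.9% at E16.5. From E14.5 to E16.5 it was thus lower on 10x and higher with Smart-seq2, and stage, library and sequence batch cannot be told apart. The intervals cover counting error only.

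**Figure D1:**
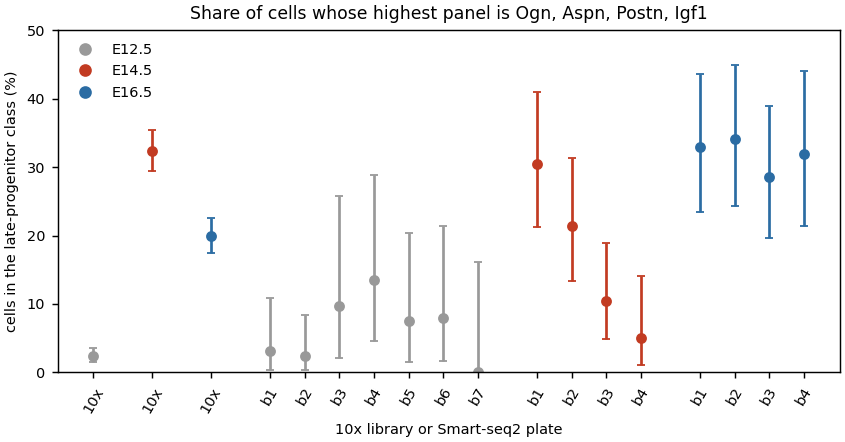
Share of cells called late mesenchymal progenitors (vertical axis, percent) in each 10x library and each Smart-seq2 plate (b1 and on), coloured by embryonic day, with exact 95% binomial intervals as bars. The E14.5 10x library stood at 32.3%, the 4 E14.5 plates ran from 5.08% to 30.4% and the 4 E16.5 plates from 28.6% to 34.1%.

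The panel genes set the members apart by the rule and are given as levels only. Levels are CPM, the counts of a gene per 1000000 counts summed over the cells of its class. *Ogn* stood at 397.001 CPM in the 10x members and 732 CPM with Smart-seq2 (545 to 1229 over the 4 plates), against 60.7 and 37.9 CPM in dermal cells and 76.3 and 109.2 CPM in muscle progenitors. *Aspn* stood at 342.6 and 301.3 CPM (219.05 to 1219 over plates), against 58.2 and 0.269 CPM in dermal cells. For both genes the lowest plate of members lay above dermal cells and muscle progenitors.

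*Postn* was at 644 and 4454 CPM in the members (3683 to 8033 over plates), against 142.6 and 412.3 CPM in dermal cells. *Igf1* was at 697 and 847 CPM (642 to 1666 over plates), against 86.04 and 40.3 CPM in dermal cells and 10.3 and 28.7 CPM in muscle progenitors. On 10x, 90.7% of members had a *Postn* count, 84.3% an *Igf1* count, 76.4% an *Ogn* count and 52.7% an *Aspn* count. With Smart-seq2 these shares were 96.6%, 89.8%, 91.5% and 57.6%. Most members thus carried several of the 4 genes, and *Aspn* was the one most often without a count on both platforms.

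*Ogn* and *Aspn* lie in the same gene cluster on mouse chromosome 13 of GRCm38, on the plus strand, with *Omd* between them. *Aspn* lies at positions 49544443 to 49567565 and *Ogn* at 49608046 to 49624501. The other 2 proteoglycan genes of the same cluster, *Ecm2* (49504810 to 49532789) and *Omd* (49582462 to 49592822), were near 0 in the members. *Omd* was at 0.544 CPM on 10x and 1.36 CPM with Smart-seq2, and *Ecm2* at 0.544 and 1.28 CPM. *Postn* lies on chromosome 3 (54361109 to 54391037) and *Igf1* on chromosome 10 (87858265 to 87937042).

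**Figure D2:**
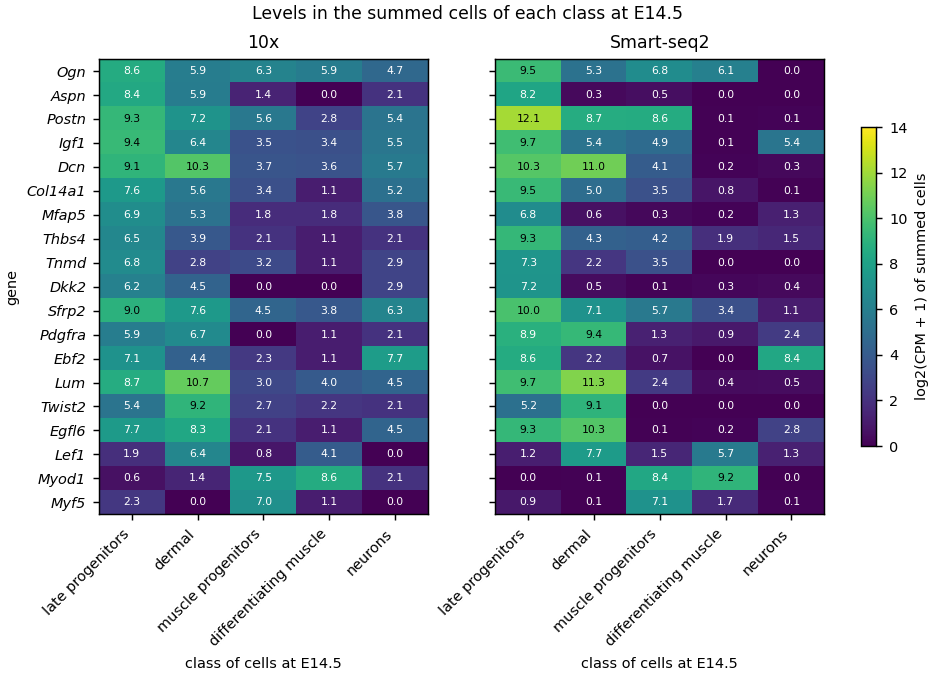
Level of the 4 panel genes and of other genes (rows) in the summed cells of 5 classes at E14.5 (columns), on 10x and Smart-seq2, as log2(CPM + 1) in colour and as the number in each cell of the map. The late progenitors lie above the other 4 classes for each panel gene, from 301.3 CPM (*Aspn*, Smart-seq2) to 4454 CPM (*Postn*, Smart-seq2), and *Ebf2* is also high in neurons.

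The border of the class was not sharp on the side of the dermal cells. The median panel score of the members was 2.04 on 10x (0.738 to 4.16) and 2.77 with Smart-seq2 (1.26 to 4.595). The 10x members nearest the threshold scored 0.738, 0.754 and 0.813, and the nearest cells outside it scored 0.698, 0.672 and 0.586. With Smart-seq2 the lowest members scored 1.26, 1.63 and 1.72, and no cell was lost to the threshold. More cells were decided by the competing panels, since 93 10x cells and 43 Smart-seq2 cells at E14.5 passed the threshold but scored higher on another panel, which was the dermal panel in 56 and 15 of them.

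Among the members themselves the runner-up was most often the dermal panel (*Twist2*, *Lum*, *Egfl6* and *Thy1*), in 51.1% of 10x cells and 41 of 59 Smart-seq2 cells. The early progenitor panel (*Prrx1*, *Alx1*, *Hmga2* and *Zfhx3*) came second in 32.3% of 10x cells and in 5 Smart-seq2 cells. Another panel also reached the threshold in 77.3% and 89.8% of members. The lead over the runner-up had a median of 0.959 and 1.57, and it was under 0.5 in 72 and 6 members. Members therefore ranged from cells with a clear lead to cells close to the dermal or early progenitor class.

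The label was checked on genes outside the panel that mark connective tissue progenitors. A list of 22 markers of adult fibro-adipogenic progenitors and fibroblasts, with *Thy1* of the dermal panel among them, summed to 853.3 and 3770 CPM in the members. The sum was 1235.8 and 3862 CPM in dermal cells and 120.8 and 572.2 CPM in muscle progenitors. By sum the list thus set the members above muscle progenitors but not above dermal cells. A count of *Pdgfra* was found in 27.8% of 10x members (22.9 to 33.1), against none of the muscle progenitors, the cells highest for *Msc*, *Cdh15*, *Myf5* and *Capn6* (0 cells, for which a floor of 3 cells allows up to 1.96% with a UMI), although the latter were deeper at a median of 8081 UMIs. A cell without a UMI can still express the gene. With Smart-seq2 it was found in 93.2% of members and in 11.1% of muscle progenitors, at median totals of 989608 and 751621 counts. *Pdgfra* did not set the members apart from dermal cells, of which 40.7% had a count on 10x and 41 of 41 with Smart-seq2. *Ebf2*, a transcription factor of brown fat and mesenchymal precursors, had a count in 46.01% and 79.7% of members, against 3.27% and 1.85% of muscle progenitors and 8.25% and 12.2% of dermal cells. *Hic1*, a repressor that marks quiescent mesenchymal progenitors in the adult, had a count in 40.9% and 89.8% of members, against 1.31% and 1.85% of muscle progenitors and 35.6% and 58.5% of dermal cells. After thinning to 2000 UMIs or 100000 expected counts a cell, the share of members with *Pdgfra* was 9.90% on 10x and 91.5% with Smart-seq2. *Pax7* itself, which marked the lineage earlier, had a count in 1.92% and 1.69% of members, against 33.99% and 88.9% of muscle progenitors.

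Other surface and fate markers were less even across platforms. *Cd34*, found on adult mesenchymal and endothelial progenitors, had a count in 21.7% of 10x members and 7.19% of muscle progenitors, but with Smart-seq2 in 81.4% and 64.8%. *Ly6a* had a count in 0.958% and 5.08% of members and in no muscle progenitor. *Pparg*, the master regulator of fat cells, had a count in 7.99% and 23.7% of members, against 0.654% and 1.85%. *Thy1*, a surface antigen of fibroblasts and a gene of the dermal panel, had a count in 6.39% of 10x members, and the Smart-seq2 share of 54.2% stood beside 46.3% in muscle progenitors. At equal depth that share was 18.6%, beside 11.1% in muscle progenitors.

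Counts of *Ebf2* and of the dermal gene *Twist2* were set side by side in the 10x members. Both had a count in 24 cells (7.67%), *Ebf2* alone in 38.3%, *Twist2* alone in 9.58% and neither in 44.4%. *Pdgfra* and *Thy1* met in 5 cells, *Pdgfra* stood alone in 82 and *Thy1* alone in 15. *Twist2* and *Thy1* are genes of the dermal panel, on which a member had to score lower than on the late progenitor panel. The rule itself thus limited the counts of *Twist2* and *Thy1* among members. Whether these pairs show more than the rule was not tested. At 10x depth a gene without a count can still be expressed, and with Smart-seq2 18 of 59 members held both *Ebf2* and *Twist2*.

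**Figure D3:**
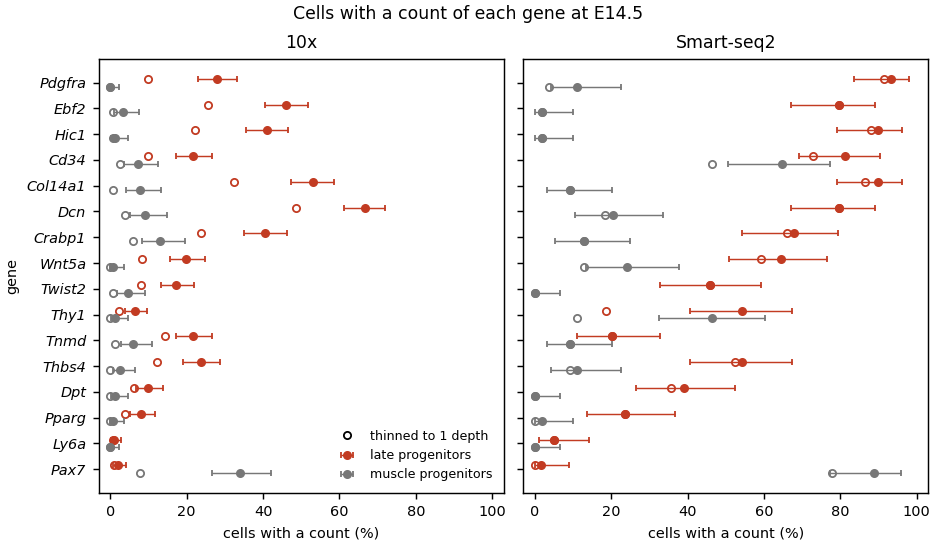
Share of cells with a count of each gene (horizontal axis, percent) in late progenitors and muscle progenitors at E14.5, on 10x and Smart-seq2, with exact 95% binomial intervals as bars and, as open circles, the share after thinning to 2000 UMIs or 100000 expected counts a cell. *Pdgfra* was found in 27.8% and 93.2% of late progenitors and *Pax7* in 1.92% and 1.69%.

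Beside dermal cells, the late progenitors held less of 6 of 16 Wnt genes and more of genes such as *C1qtnf3*, *Thbs3* and *Tnmd*. A gene was counted as different when the ratio of CPM was at least 4-fold in the same direction on both platforms, with at least 20 CPM in the higher class on each. Of 5199 genes with that level outside the panels, 24 were higher in the members (0.462%) and 63 lower (1.21%). *C1qtnf3*, a secreted C1q and TNF family protein of cartilage and fibroblasts, was at 284.4 and 1067 CPM in the members against 16.03 and 6.19 CPM in dermal cells. *Thbs3*, a thrombospondin of tendon and bone, was at 37.5 and 227.5 CPM against 5.06 and 4.54 CPM.

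Of the genes with the largest ratios, *Tnmd* (tenomodulin, a membrane protein of tendon cells) stood at 108.2 and 155.9 CPM in members and 5.91 and 3.72 CPM in dermal cells. *Chodl*, a C-type lectin, stood at 54.4 and 82.002 CPM against 0.844 and 0.709 CPM. *Cd36*, the fatty acid transporter, stood at 42.4 and 80.5 CPM against 3.37 CPM and 0. Each of these genes was at less than 6 CPM in dermal cells on both platforms. *Bmper*, a secreted modulator of BMP, *Ren1* (renin) and *Anxa1* (annexin A1) completed the 8 largest, with at least 22.4 CPM in the members on either platform and at most 11.4 CPM in dermal cells.

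The genes that were lower in the members included several of the Wnt pathway, which patterns the dermis under the epidermis. Of the 30 Wnt genes listed, 16 reached 20 CPM, and 6 of them were lower and 0 higher (*Wnt6*, *Sfrp5*, *Wif1*, *Rspo1*, *Lef1* and *Nkd1*). *Lef1*, a transcription factor that carries the Wnt signal, was at 2.72 and 1.29 CPM in the members against 86.04 and 204.5 CPM in dermal cells. *Nkd1*, an inhibitor that Wnt signals induce, was at 19.03 and 34.2 CPM against 164.5 and 483.5 CPM, and *Wif1*, a secreted Wnt inhibitor, at 3.81 and 16.4 CPM against 49.8 and 354.1 CPM. The list as a whole had a median log2 ratio of 0.01 and 0.29, beside −0.02 and −0.06 over all genes of that level, so that the list held genes on either side. *Dkk2*, another secreted Wnt antagonist, was at 71.2 and 150.6 CPM in the members and 21.1 and 0.368 CPM in dermal cells, and *Sfrp2* at 512.8 and 1020 CPM against 192.3 and 140 CPM.

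Of the 15 genes of dermal fate listed, 10 reached 20 CPM and 3 were lower in the members (*Crabp1*, *Lef1* and *Mef2c*). *Crabp1*, which binds retinoic acid in the cell, was at 216.4 and 145.7 CPM in members and 3499 and 2707 CPM in dermal cells. *Cyp26b1*, which degrades retinoic acid, was at 5.98 and 0.791 CPM against 51.5 and 37.995 CPM. The other lowest genes were *Lix1* (3.81 and 4.17 CPM against 134.1 and 359.4), *Bcl11b* (4.35 and 1.20 against 149.3 and 156.1), *Ass1* (1.09 and 0.822 against 64.1 and 140), *Cpxm2*, *Plxna4* and *Col7a1*. *Bcl11b* encodes a transcription factor known from skin and lymphocytes, and *Col7a1* the collagen of anchoring fibrils at the junction of dermis and epidermis.

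Of 19 collagens at 20 CPM, 1 was 4-fold higher in the members than in dermal cells, beside 0.462% over all genes of that level. This was *Col8a2* (30.5 and 180.8 CPM in members, 5.06 and 15.3 CPM in dermal cells), and the list median was 0.32 and 0.49. *Col1a1* was at 2755 and 15920 CPM in the members and 2260 and 14426 CPM in dermal cells. *Pdgfra* went the other way, with 60.4 and 470 CPM in members and 101.2 and 676 CPM in dermal cells. Among the IGF genes, 8 of 9 reached the level and 1, *Igfbp6*, was 4-fold higher, again beside 0.462% over all genes. *Igfbp4* was at 727 and 1928 CPM in the members against 320 and 275.9 CPM, and *Igfbp3* at 394.3 and 864 CPM against 137.5 and 31.3 CPM. The median log2 ratio of the IGF list was 0.66 and 2.25.

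Genes imprinted in the embryo and linked to growth were higher in the members by their median, at 0.79 and 2.02 on the log2 scale, without any of the 15 that reached 20 CPM passing the 4-fold rule. *Dlk1*, a transmembrane protein that keeps preadipocytes undifferentiated, was at 5791 and 1781 CPM in the members and 3233 and 580 CPM in dermal cells. *Igf2*, the fetal growth factor, was at 97.9 and 2366 CPM against 56.5 and 498.3 CPM. Both genes were higher in the members on each platform.

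Many genes of the extracellular matrix were higher in the members than in muscle progenitors. Of 5206 genes, 280 were at least 4-fold higher in the members (5.38%) and 80 lower (1.54%). Of the collagens 14 of 20 at that level were higher, with a median log2 ratio of 3.21 and 3.85 beside 0.12 and −0.20 over all genes. Of the matricellular and elastic fibre genes 20 of 28 were higher, with a median of 3.07 and 3.19. *Col1a1* was 53.3-fold higher on 10x and 133.7-fold with Smart-seq2, and *Dcn* (decorin) was at 566 and 1253 CPM against 11.9 and 15.998 CPM. Neither list held a gene that was 4-fold lower.

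The lists of secreted signals differed in their counts. Of the BMP and TGF-beta list 4 of 15 genes at 20 CPM were higher, of the Wnt list 5 of 10, of the IGF list 2 of 8, and of the PDGF and FGF list 1 was higher and 2 lower of 9. *Cxcl12*, the chemokine that guides muscle precursors and blood cells, was at 106.05 and 288.3 CPM in the members and 0.795 and 1.85 CPM in muscle progenitors. All 5 chemokine and complement genes that reached 20 CPM were higher (*Cxcl12*, *Cxcl14*, *Cxcl1*, *Ccl2* and *Serping1*). *Sfrp1*, a secreted Wnt antagonist, was at 175.7 and 200 CPM against 0.795 and 3.91 CPM. *Angptl1* (241.5 and 557 CPM against 3.97 and 9.97), *Ebf1* (157.7 and 120.8 against 1.59 and 0.880), *Tshz2* and *Mfap5* were the other genes with the largest ratios.

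In the other direction, 5 of 5 muscle genes that reached the level were lower in the members (*Pax7*, *Myod1*, *Des*, *Ttn* and *Tnnt1*). *Myod1*, the myogenic transcription factor, was at 0.544 CPM and 0 in the members and 175.7 and 330 CPM in muscle progenitors. *Vgll2*, *Neb*, *Fitm1*, *Rapsn*, *Mrln*, *Pitx3* and *Arpp21* made up the rest of the 8 lowest, and most of these are known from skeletal muscle. Genes of cell division were lower as well, 6 of 27, led by *Hmmr*, *Aurkb* and *Top2a* among others, with a list median of −1.47 and −2.09.

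**Figure D4:**
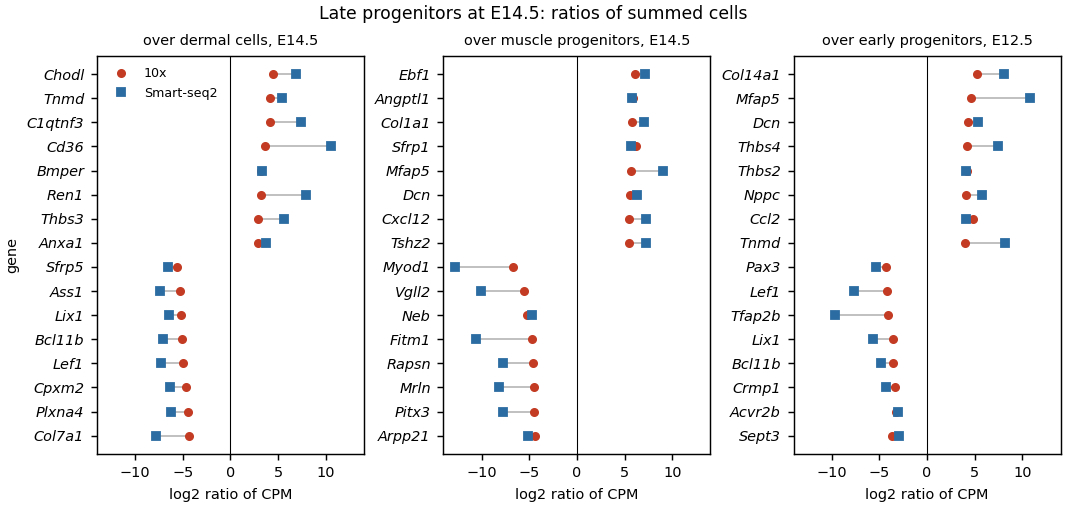
Log2 ratio of CPM (horizontal axis) of E14.5 late progenitors over dermal cells, muscle progenitors and E12.5 early progenitors, for the 8 largest ratios in each direction, on 10x (circles) and Smart-seq2 (squares), with a line joining the platforms. Every gene lies on the same side of 0 on both platforms, as the choice of genes required, and *Chodl* and *Sfrp5* lead the panel for dermal cells.

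No gene was 4-fold higher than in every other E14.5 class of at least 20 cells on both platforms (0 of 7411, 0.0%). The smallest class on 10x, the early progenitors, had 32 cells, so that the floor of 3 counts was high in CPM there. Genes near 20 CPM therefore could not reach 4-fold, and the count of 0 speaks only for genes of higher level. With Smart-seq2 that class had 3 cells and did not enter. At 2-fold 20 genes were higher than in every other class compared. They included the Wnt antagonists *Dkk2*, *Sfrp1* and *Sfrp2*, the elastic fibre genes *Mfap5* and *Mfap4*, and *Col14a1*, a collagen that binds to fibrils. *Agtr2*, the angiotensin receptor of fetal mesenchyme, was at 350.8 and 1576 CPM in the members (1386 to 2713 over plates), 2.20-fold and 3.65-fold over the next class. *Meox1*, a homeobox gene of the somite, was at 36.4 and 96.9 CPM, with 60.9 to 279.03 CPM over plates. *Cd36* and *Thbs4* also belonged to the 20 but were uneven between plates, at 0 to 113.2 CPM and 64.4 to 910 CPM. The remaining genes were *Antxr1*, *Gfpt2*, *Clu*, *Anxa1*, *Ramp3*, *Ifi27*, *Tm4sf1*, *Fibin*, *Rai14* and *Fhl2*, of which *Anxa1*, *Ifi27* and *Tm4sf1* were at 0 in at least 1 plate. The comparison covers E14.5 only, and in the late progenitors of E16.5 *Mfap5* was at 415.3 and 548 CPM and *Cd36* at 46.5 and 140.4 CPM.

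The early progenitors of E12.5 differed from the E14.5 members in stage as well as class, and the effects of stage and class cannot be told apart. Of 5590 genes, 97 were 4-fold higher in the members (1.74%) and 47 lower (0.841%). Collagens were again higher by count, with 11 of 19 higher and a median log2 ratio of 2.06 and 3.30 beside −0.12 and −0.25 over all genes, and so did 10 of 28 matricellular and elastic fibre genes. *Col14a1* was at 190.9 and 712 CPM in the members and 3.32 and 2.64 CPM in the early progenitors, and *Dcn* at 566 and 1253 CPM against 29.9 CPM on both platforms. *Thbs2* was at 87.6 and 974 CPM against 4.98 and 56.2 CPM. *Nppc*, which encodes C-type natriuretic peptide, and the chemokine *Ccl2* were also among the largest ratios.

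The 8 lowest ratios relative to E12.5 were those of *Pax3*, *Lef1*, *Tfap2b*, *Lix1*, *Bcl11b*, *Crmp1*, *Acvr2b* and *Sept3*. *Pax3*, the dermomyotome transcription factor, was at 1.09 and 1.86 CPM in the members against 31.5 and 79.1 CPM. *Tfap2b* was at 0 and 0.171 CPM against 28.2 and 133.03 CPM, and *Lef1* at 2.72 and 1.29 CPM against 51.4 and 261.97 CPM. Of the connective tissue transcription factors, 4 were lower (*Pax3*, *Six2*, *Nr2f1* and *Nr2f2*) and 4 higher (*Osr2*, *Klf2*, *Plagl1* and *Creb3l1*) of 24. Of the IGF list 1 of 8 was 4-fold higher.

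A part of the members carried tendon genes. Of the 5 tendon markers *Scx*, *Tnmd*, *Mkx*, *Thbs4* and *Kera*, at least 2 had a count in 49 10x members (15.7%) and 27 of 59 Smart-seq2 members (45.8%). Among dermal cells this held for 1 cell (0.515%) and 4 of 41, and among muscle progenitors for 1 cell (0.654%) and 7 of 54. The summed level of the 5 genes was 256.7 and 899 CPM in the members, 27.8 and 31.8 CPM in dermal cells and 24.6 and 54.998 CPM in muscle progenitors. *Tnmd* and *Thbs4* met in 29 10x members, *Tnmd* and *Ebf2* in 30, and *Tnmd* and *Pdgfra* in 17. Between plates *Tnmd* ran from 0 to 936 CPM, with 96.1 CPM in batch 3 and 645 CPM in batch 4. The E16.5 late progenitors carried a like sum of 309.01 and 674 CPM.

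Cell cycle transcripts were scarcer in the members than in dermal cells and muscle progenitors. The 28 cell cycle genes held a median of 4.65 counts per 10000 in the 10x members, 7.07 in dermal cells and 28.1 in muscle progenitors, and 12.3, 44.96 and 78.1 with Smart-seq2. *Mki67* or *Top2a* had a count in 18.5% of 10x members, 28.4% of dermal cells and 65.4% of muscle progenitors. With Smart-seq2 the shares were 67.8%, 73.2% and 88.9%. The order of the classes was the same on both platforms, although Smart-seq2 found a count in more than 3 times as large a share of members.

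Markers of other cell types were summed over their lists. Globin and other blood genes summed to 124.5 CPM in the 10x members, with 3 of 7 at 0, to 3.79 CPM with Smart-seq2, and to between 113.5 and 158.3 CPM in dermal cells, muscle progenitors, differentiating muscle cells and neurons of the same library. Endothelial genes summed to 17.9 and 111.8 CPM, immune genes to 21.2 and 10.6 CPM, and epidermal genes to 5.44 and 5.55 CPM. The endothelial sum was 6.75 and 95.4 CPM in dermal cells and 1.59 and 64.5 CPM in muscle progenitors. The immune sum was 5.91 and 6.05 CPM in dermal cells and 0 and 8.09 CPM in muscle progenitors. Cartilage genes summed to 163.2 and 256.3 CPM, against 363.6 and 38.2 CPM in dermal cells, with *Col2a1* at 17.9 and 52.2 CPM in the members. Schwann cell genes were at 2.18 and 8.62 CPM, bone genes at 20.1 and 45.6 CPM and brown fat genes at 17.4 and 56.6 CPM, with 4 of 6 brown fat genes at 0 with Smart-seq2. Brown fat genes were lower in dermal cells (3.37 and 12.8 CPM) and in muscle progenitors (0.795 and 10.7 CPM). Mural genes summed to 139.8 and 245.8 CPM in the members, 168.7 and 156.6 CPM in dermal cells and 732 and 850.1 CPM in muscle progenitors. Muscle genes summed to 77.8 and 38.4 CPM in the members and neuron genes to 53.3 and 40.8 CPM, beside 206.7 and 214.8 CPM for neuron genes in dermal cells. Their part in the ratios above was not tested.

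The same class was compared between E14.5 and E16.5, since the rule did not use the day. For each platform and day the counts of all late progenitors were added up, and 2 such sums stood against 2 in edgeR's quasi-likelihood test across 13503 genes, with 31 sums of all classes sharing the estimate of spread. With Benjamini-Hochberg adjustment 14 genes passed 0.05 (0.104%), 8 of them higher (0.0592%) and 6 lower (0.0444%) at E14.5, and 1114 genes had an unadjusted p under 0.05. Most of these calls were of scarcely counted genes, since 12 of the 14 had fewer than 3 UMIs in the 10x members, and none had at least 20 CPM on both platforms. The E16.5 plates were all of sequence batch 6 and the E14.5 plates of batches 3 and 4, so that with Smart-seq2 day and batch cannot be told apart. No gene passed when either Smart-seq2 sum of the class was left out. *Gprc5a*, an orphan receptor that retinoic acid induces, was lower at E14.5, with 1.09 against 9.97 CPM on 10x and 3.58 CPM (0 to 5.09 over plates) against 128.9 CPM (99.9 to 168.8) with Smart-seq2. Its log2 change was −4.99 with an adjusted p of 0.0462. *Sfrp5* (1.09 CPM against 0, and 2.56 against 0.0667 CPM) was the only call among the gene lists.

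The panel genes chose the cells at both days and are given between the days as levels, without a test. *Ogn* was at 397.001 CPM at E14.5 and 518.3 CPM at E16.5 on 10x, and at 732 and 1768 CPM with Smart-seq2. *Aspn* was at 342.6 and 338.9 CPM on 10x but at 301.3 and 1394 CPM with Smart-seq2. *Postn* was at 644 and 1784 CPM and at 4454 and 6002 CPM, and *Igf1* at 697 and 701 CPM and at 847 and 1023 CPM. For *Pdgfra*, outside the panels, the log2 difference of E14.5 minus E16.5 was 0.39 (SE 0.688), for *Ebf2* 0.37 (SE 1.05) and for *Cd34* −1.47 (SE 0.624), each without a call.

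Some markers of adult fibro-adipogenic progenitors and universal fibroblasts had lower levels at E14.5 than 2 days later, and none passed the test. Of 21 genes measured, 7 were at least 2-fold lower at E14.5 on both platforms (*Ly6a*, *Pi16*, *Dpt*, *Entpd2*, *Clec3b*, *Cd55* and *Mfap5*), 0 were higher, 0 were called and 8 had an unadjusted p under 0.05. Over all 5181 genes with 20 CPM on both platforms, 80 were 2-fold lower on both (1.54%) and 85 higher (1.64%). The median log2 ratio of the 17 listed genes at that level was −1.64 and −0.90, beside 0.20 and 0.15 over all genes.

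*Dpt*, which encodes dermatopontin and marks fibroblasts of many organs, was at 39.7 CPM on 10x at E14.5 and 435.3 CPM at E16.5. With Smart-seq2 it was at 165.6 CPM (12.1 to 187.8 over plates) and 510.5 CPM (390.6 to 611), and the plates of the days did not overlap. *Pi16*, a peptidase inhibitor of adventitial fibroblasts, was at 0.544 and 43.2 CPM on 10x and at 9.46 CPM (1.26 to 16.2) and 74.5 CPM (27.5 to 137.7) with Smart-seq2, with a log2 difference of −4.16 (SE 0.899, adjusted p = 0.0835). *Ly6a* was at 2.18 and 46.5 CPM, and at 6.97 CPM (0 to 8.78) and 88.7 CPM (20.3 to 163.7), with a difference of −4.06 (SE 1.60, adjusted p = 0.515). *Mfap5*, which encodes a microfibril protein, was at 116.9 and 415.3 CPM, and at 111.8 CPM (70.1 to 236.9) and 548 CPM (323.1 to 880). For these 4 genes both platforms and all plates placed E14.5 below E16.5.

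The rest of the list was mixed. By sign alone 12 of the 21 genes were lower at E14.5 on both platforms, 8 differed in sign between the platforms and 1, *Hic1*, was higher on both. *Hic1* was at 102.2 against 73.1 CPM on 10x and 198.7 against 31.9 CPM with Smart-seq2. Its Smart-seq2 level at E14.5 was uneven between the sequence batches. In the batch with fewer members it was close to the level of the later day. *Osr1*, a transcription factor of fibro-adipogenic progenitors, was at 29.9 and 53.2 CPM on 10x, and at 140.5 CPM (112.9 to 166.4 over plates) and 48.9 CPM (20.03 to 89.9) with Smart-seq2. *Pdgfra* was at 60.4 and 83.1 CPM on 10x and at 470 and 185.6 CPM with Smart-seq2, and *Vcam1*, a cell adhesion molecule, at 39.2 and 39.9 CPM and at 274.1 and 140.04 CPM.

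In the other lists few genes differed in level between the days. Of the matricellular genes *Thbs1*, *Tnxb*, *Nov* and *Mfap5* were 2-fold lower at E14.5 on both platforms, and *Thbs1* was at 497.1 and 1143 CPM on 10x and 722 and 4012 CPM with Smart-seq2. Of the collagens *Col5a3* was lower, and *Col8a2* and *Col26a1* were higher. *Col26a1* was at 140.9 and 46.5 CPM on 10x, and at 348.9 CPM (262.5 to 423.03) and 79.5 CPM (67.5 to 94.5) with Smart-seq2, where the plates of the days did not overlap, with a log2 difference of 1.68 (SE 0.631, adjusted p = 0.425). *Igfbp6* and *Igfbp7*, *Cebpd* and *Lpl*, and the Wnt modulators *Sfrp4* and *Dkk3* were lower at E14.5 on both platforms, and *Sfrp2* was higher. Among all genes, *Thbd*, *Il6*, *Ndufa4l2*, *Mt1* and *Mmp23* had the next largest ratios toward E16.5, and *Elk3*, *Alcam*, *Mpped2* and *Prmt1* were among those with the largest ratios toward E14.5.

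**Figure D5:**
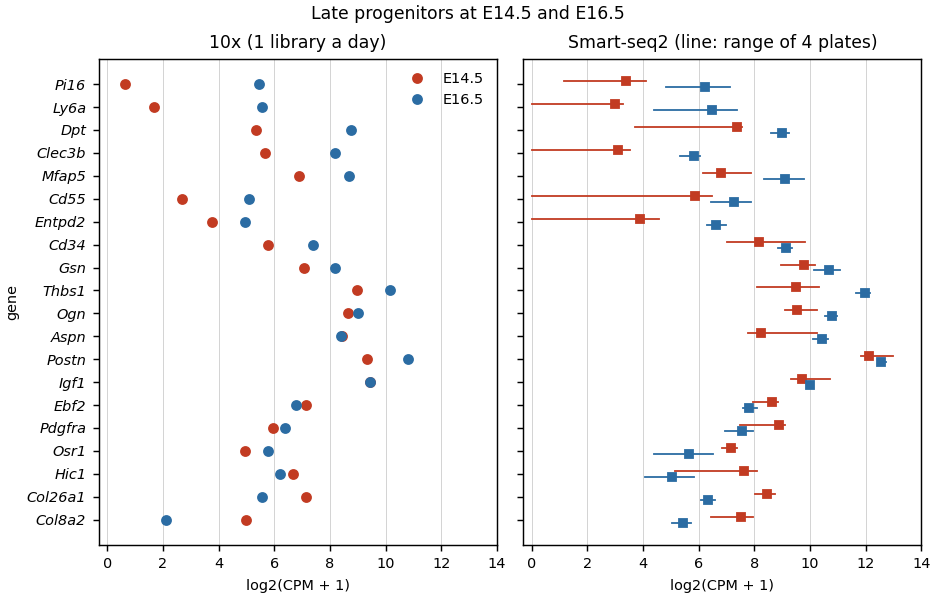
Level of selected genes in late progenitors at E14.5 and E16.5 (horizontal axis, log2(CPM + 1)), on 10x as 1 library a day and on Smart-seq2 as the sum of the day's cells (squares) with the range of the 4 plates (lines). *Dpt*, *Pi16*, *Ly6a* and *Mfap5* lie lower at E14.5 on both platforms, *Col26a1* lies higher, and *Igf1* is at 697 and 701 CPM on 10x.

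The day effect of the late progenitors was also set against that of the other classes, as the difference of the log2 changes in the same edgeR model. It differed from the day effect of dermal cells for 26 genes (0.193%), 8 upward (0.0592%) and 18 downward (0.133%), and from that of muscle progenitors for 19 genes (0.141%), 10 upward (0.0741%) and 9 downward (0.0667%). With limma each count was 2, and with only genes of at least 20 CPM on both platforms they were 1 and 0. For *Pi16* the difference from the dermal effect was −5.29 (SE 1.40, adjusted p = 0.152). These differences contain the ratios between the classes at each day, on which the choice of cells acted, so that their p-values are not free of that choice.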

How the data were processed

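Single cells of 3 stages were used. The deposited 10x table holds UMI counts per gene and cell from Cell Ranger, and the deposited Smart-seq2 table holds expected counts that the authors estimated with kallisto 0.44.0 and summed per gene, both without scaling. Per the labels the genome build was mm10. Bulk read counts, also deposited, were not used, because the names of their columns had lost the sign of the *Thy1* sort. Members and gene lists were chosen with earlier results of these data known. "With a count" means a value of at least 0.5, which for 10x is 1 UMI. Totals per cell ran from 407 to 14955 UMIs and from 40081 to 3520673 expected counts.

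The 9 panels held 36 genes, which were left out of counts over all genes. Called doublets (Scrublet in scanpy 1.11.5) were kept. Counts were summed per class, platform and day where at least 20 cells were found, which gave 31 sums, and rounded to whole numbers. The members were 372 cells, 313 of 968 on 10x and 59 of 326 with Smart-seq2. Tests ran on the 15152 genes of both tables, levels are CPM over all counts of a class, and ratios against fewer than 3 counts were taken against that floor. Sums were compared with edgeR 4.0.16 (filter on low counts, TMM, quasi-likelihood F test, class by day with the platform as a term, 13 residual degrees of freedom, Benjamini-Hochberg adjustment). The SE given with an edgeR log2 difference was worked back as its absolute size divided by the square root of its F value. It is not a standard error reported by the fit. Each class and day had at most 1 sum per platform. The p-values thus measure how far the 10x and Smart-seq2 sums of a class and day differ beyond the platform term, not a spread between replicate pools. Sums of several classes came from the same library or plates, which the model did not take into account. Each Smart-seq2 sum joined the plates of its day. Alternatives used DESeq2 1.42.0, limma 3.58.1, other thresholds for members, single batches, thinned cells and each sum left out. Genes named are the panel genes, those the study names, the 8 largest ratios in each direction per class comparison, and genes of the fixed lists past the threshold; the 20 genes over every class, *Omd*, *Ecm2* and some genes given for contrast were chosen after their values were seen. Shares carry exact Clopper-Pearson 95% intervals. Gene positions are from GENCODE vM21 on GRCm38. Python 3.11.15, numpy 2.4.6, pandas 2.3.3 and scipy 1.17.1 were used, and the tests were checked on simulated data.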

Additional observations from a re-analysis of the deposited data

Results flagged for a closer look

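For 2 named genes the change between E14.5 and E16.5 in late progenitors differed from that in dermal cells by the interaction test in edgeR. Both were named for their large ratios to dermal cells at E14.5, and that ratio is part of the tested difference. The adjusted p-values below are therefore not independent of that choice. *Chodl* was at 54.4 CPM at E14.5 and 19.9 CPM at E16.5 in the 10x late progenitors, and at 82.002 CPM (16.7 to 694 over plates) and 70.9 CPM (15.9 to 162.1) with Smart-seq2. Its log2 change minus that of dermal cells was 6.33 (SE 1.25, adjusted p = 0.0452), and the plates of the days overlapped. The late progenitors' own log2 change was 0.45 (SE 0.719, adjusted p = 0.982), while dermal cells were at 0.844 and 21.9 CPM on 10x and 0.709 and 32.7 CPM with Smart-seq2 at E14.5 and E16.5. *Cpxm2*, a carboxypeptidase-like protein, was at 0.544 and 3.32 CPM on 10x and at 3.50 and 30.6 CPM with Smart-seq2, with a difference of −4.30 (SE 0.808, adjusted p = 0.0480). Its own change was −3.39 (SE 0.628, adjusted p = 0.0566), and dermal cells were at 41.3 and 31.7 CPM on 10x and 274.5 and 79.8 CPM with Smart-seq2. *Chodl* was scarce in dermal cells at E14.5 and *Cpxm2* in late progenitors on 10x, where few counts set the ratio.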

How the results depend on the processing

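The members were 28.1% of E14.5 cells with a threshold of 1.0, 29.1% with 0.5, 22.7% with a lead of at least 0.5 and 28.6% without doublets, beside 28.7% as reported. The count of genes that differed between E14.5 and E16.5 in late progenitors was 14 in the reported test. It was 23 with DESeq2 size factors, 9 with limma, 23 at a panel score of 1.0 and 46 with a lead of 0.5. With the late progenitor sums alone it was 89, and with only genes of at least 20 CPM on both platforms it was 0. Leaving out each sum gave 0 to 20, with 0 without the Smart-seq2 sum of either day. The difference from the dermal day effect, 26 genes, was 2 with DESeq2 or limma, 71 with a lead of 0.5, 14 with batch 3, 1 with batch 4, 1 at 20 CPM and 0 to 57 without each sum, with 57 and 54 without the 10x dermal sum of E14.5 or E16.5, 12 and 17 without the 10x late progenitor sum of E16.5 or E14.5, and 0 to 3 without any 1 Smart-seq2 sum. The difference from muscle progenitors, 19 genes, was 1 with DESeq2, 2 with limma, 31 with a lead of 0.5, 0 with batch 4, 0 at 20 CPM and 0 to 30 without each sum, with 30 without the E14.5 10x muscle sum and 0 to 2 without any 1 Smart-seq2 sum. The cause was not tested. With batch 4 alone fewer than 20 Smart-seq2 members were left at E14.5, so that no sum was formed from them. The E14.5 late progenitors then came from 10x only, and the batch 4 counts above show nothing about the members of that batch. The 20 CPM setting and the members without tendon genes were chosen after seeing the data.

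Some signs of single day differences, none of which was called, reversed. With batch 4 alone, where the E14.5 late progenitors came from 10x only, this held for *Pdgfra* (−0.58), *Ebf2* (−0.56), *Pparg* (−0.20) and *Pax7* (1.08). With limma it held for *Pax7* (0.86). Without each sum the differences ran from −1.81 to 0.28 for *Acta2*, −2.02 to 1.02 for *Cd36*, −0.76 to 1.48 for *Ebf2* and −5.06 to 7.82 for *Pax7*. For *Pdgfra* they ran from −0.43 to 0.94, for *Pdgfrb* from −1.51 to 0.015, for *Pparg* from −0.23 to 0.91 and for *Rgcc* from −2.61 to 0.87. *Ly6a* passed the test with the late progenitor sums alone (−4.16).

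At a ratio of at least 2 the genes higher and lower than in dermal cells were 3.10% and 3.81% of those compared, than in muscle progenitors 13.4% and 6.49%, and than in E12.5 early progenitors 6.35% and 5.51%, with 0.270% over every class. A score of 1.0 gave 0.0198% over every class, and a lead of 0.5 gave 0.265%, with 1.40% over dermal cells. At 50 CPM these shares stayed within 1.5 times. Thinned to 2000 UMIs, the 10x shares were 9.90% for *Pdgfra* and for *Cd34*, 2.24% for *Thy1*, 25.6% for *Ebf2*, 7.99% for *Twist2*, 14.4% for *Tnmd*, 12.1% for *Thbs4*, 32.3% for *Col14a1*, 23.6% for *Crabp1* and 3.83% for *Pparg*. Thinned Smart-seq2 shares were 18.6% for *Thy1* and 0 for *Pax7*, and without members holding 2 tendon genes 62.5% for *Twist2*, 37.5% for *Pparg* and 0 for *Pax7*.

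No paired analysis was possible because the single cells carry no replicate number shared between the days, and the bulk libraries, with their planned tests and alternatives, were not run here. Class counts with batch 4 alone were not run, since it held 12 members. Depth limits the 10x values most at E16.5, where 1 count of the late progenitor sum was worth 3.32 CPM.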

Other observations

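The YFP+ members of the 4 Smart-seq2 plates were not alike in every gene. *Hic1* was at 218.8 CPM in the plates of sequence batch 3 and 34.5 CPM in those of batch 4, *Pparg* at 62.9 CPM and 0, and *Cd36* at 90.3 CPM and 0. *Tnmd* went the other way, at 96.1 and 645 CPM, as did *Igf1* at 785 and 1347 CPM. *Ebf2* was at 407.4 and 281.5 CPM and *Dcn* at 1180 and 1847 CPM. Batch 4 held 12 members against 47 in batch 3, and no batch label was given for the 10x library.

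Among the retinoid genes, the binding protein *Crabp1* was not the only one that differed in level between classes. *Aldh1a3*, which makes retinoic acid, was at 38.1 and 127.4 CPM in the members, 12.7 and 3.50 CPM in dermal cells and 2.38 and 1.63 CPM in muscle progenitors. Of the 16 retinoid genes, 6 reached 20 CPM beside muscle progenitors, and 2 of them were 4-fold higher in the members (*Aldh1a3* and *Crabp1*). Over all genes of that level the share was 5.38%. *Nefm*, a neurofilament gene, was at 33.2 and 33.5 CPM in the members against 5.06 and 0.0403 CPM in dermal cells, whereas *Stmn2*, another neuronal gene, was at 15.8 and 3.09 CPM against 190 and 198.6 CPM.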
